A study of Homo sapiens with 6 samples.

Results

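The methyl-CpG readers described here are 7 genes, MBD1, MBD2, MBD3, MBD4, ZBTB33, ZBTB4 and ZBTB38, whose proteins bind methylated CpG sites or belong to families that do. They were chosen by symbol, by a rule that uses no measured value though earlier results of these data were known, and all 7 were found among the 57820 human gene rows of the deposited table by Ensembl identifier. RNA was measured in 2 groups of 3 samples. The first group, WT, is HCT116, an established cell line from a human colorectal cancer, and the second, DKO1, is its derivative in which the DNA methyltransferase genes DNMT1 and DNMT3B are knocked out. Neither group was given a treatment in the labels, and both were grown in the same medium. Every DKO1 sample is of 1 derived line, so that the knockout of the 2 genes and other differences between the lines cannot be told apart. Whether the replicates came from separate cultures is not stated, and the p-values then cover only sample-to-sample spread, in part perhaps technical.

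Methylated CpG sites are recognised by proteins with a methyl-CpG-binding domain (MBD) and by a group of POZ zinc finger proteins of which Kaiso, the product of ZBTB33, is the best known. Most of them bring co-repressors to methylated DNA: MBD1 works with the H3K9 methyltransferase SETDB1, MBD2 is a subunit of the nucleosome remodelling and deacetylase complex NuRD, and Kaiso binds the N-CoR co-repressor. MBD3 takes the place of MBD2 in a separate form of NuRD and has little preference for methylated DNA, and MBD4 is a DNA glycosylase that removes the thymine left when a methylated cytosine is deaminated. The series concerns what DNA methylation does for genome organisation, and the comparison here asks whether the transcripts of the proteins that read this mark differ between a line that carries it and one in which 2 of its writers were targeted.

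The values are TPM, in which reads are divided by transcript length and then brought to a common total, so that levels of different genes can be set side by side as far as length goes. Differences between replicates moved with the GC content of transcripts, as given below, and this limits such comparisons. The table gives no counts, and without the sequencing depth no counting interval can be given. A bulk value cannot tell fewer cells expressing a gene from less RNA per cell. DNMT1 was 6.68-fold lower in DKO1 and DNMT3B 1.66-fold lower, and the groups did not overlap for either gene. Of 7 markers of colorectal epithelium, 5 reached a mean of 1 TPM in WT and 4 in DKO1, with CDX1 and VIL1 below 1 TPM in both. Summed fibroblast markers (7 genes) were at 1.03 to 1.42 TPM in WT and 3.17 to 3.6 TPM in DKO1, summed blood markers (6 genes, HBB at 0 throughout) at 0.14 to 0.47 and 1.2 to 1.26 TPM, and summed endothelial markers (2 genes) at most 0.23 TPM; their part in the results was not tested. The share of TPM from mitochondrial genes was 19.7% to 20.1% in WT, and in DKO1 it was 26.9%, 27.7% and 21.2%.

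Of the 7 readers, MBD1 rose and ZBTB33 fell in DKO1, and MBD2, MBD3, MBD4, ZBTB4 and ZBTB38 did not pass the test. The test was limma on log2(TPM + 1) over the 13604 genes that reached 1 TPM in 3 or more samples, with a call at a Benjamini-Hochberg adjusted p below 0.05, and all 7 readers entered it. It called 28.4% of all tested genes, 18.8% as higher and 9.6% as lower. This split of 2558 higher and 1306 lower genes depended on the scaling: it was 1817 and 1939 under quantile normalization, 2085 and 3199 after a correction for the GC content of transcripts, and 3489 and 1073 once mitochondrial genes and spike-in rows were removed. The readers, with 1 of 7 higher (14.3%) and 1 of 7 lower (14.3%), had shares near this background. Their median log2 fold change was −0.04, beside 0.07 over all tested genes. The 2 groups did not overlap for 3 of the 7 readers, MBD1, ZBTB33 and ZBTB4, beside 45.4% of tested genes.

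MBD2 was the most abundant reader transcript in both genotypes and MBD3 the least. By mean level, MBD2 led in WT with 70.1 ± 12.5 TPM (SD, n = 3 here and below), followed by MBD4 at 41.2 ± 2.78, ZBTB33 at 22.6 ± 2.06, ZBTB38 at 21.2 ± 1.81, MBD1 at 13.3 ± 0.588, ZBTB4 at 4.2 ± 0.609 and MBD3 at 1.0 ± 0.586 TPM. In that order only ZBTB33 and ZBTB38 had overlapping values. In DKO1 the order was MBD2, MBD4, MBD1, ZBTB38, ZBTB33, ZBTB4 and MBD3, with MBD1 moved from the fifth place to the third and ZBTB33 from the third to the fifth. There the values of MBD1 overlapped those of ZBTB38, and those of ZBTB38 overlapped those of ZBTB33. Among all tested genes the WT level of MBD2 stood at percentile 84.0 and that of MBD3 at percentile 10.3. MBD3 also had the highest GC content of the readers (65%), and the part of this in its rank was not tested.

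**Figure D1:**
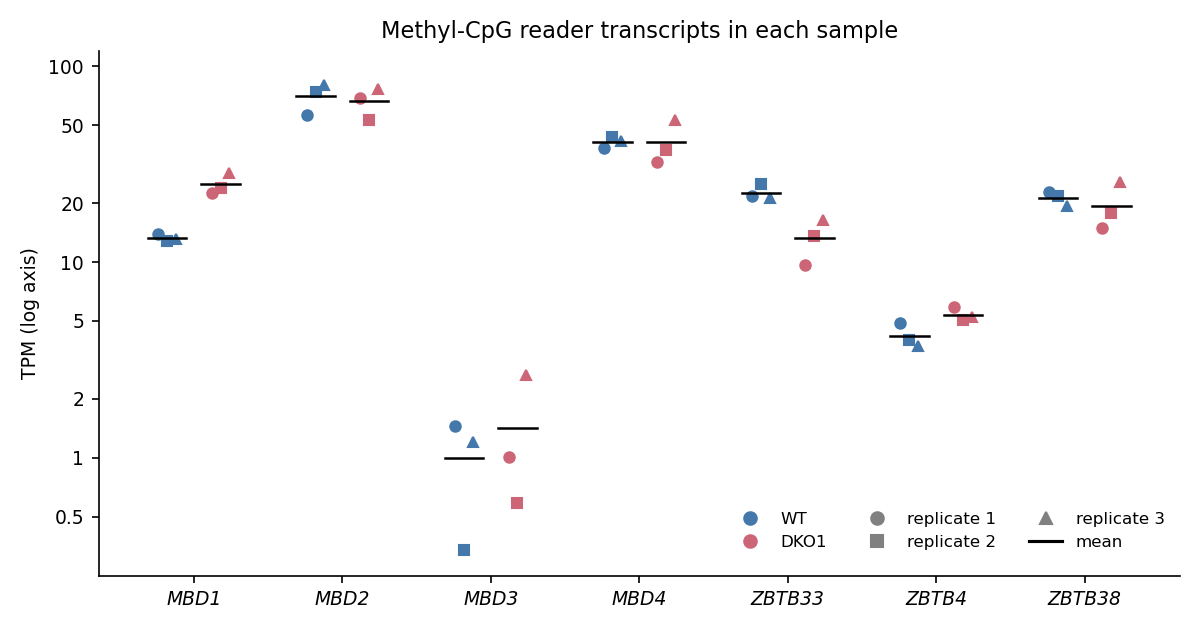
TPM of each reader (log axis) in the 3 WT and 3 DKO1 samples; the marker shape gives the replicate and the black line the mean. All DKO1 samples lie above all WT samples for MBD1 and below them for ZBTB33, and MBD3 lies lowest, where replicate 2 had 0.34 TPM in WT and 0.59 TPM among the DKO1 samples.

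MBD1 (ENSG00000141644.13, chromosome 18) encodes a repressor with an MBD and, in several isoforms, a CXXC zinc finger that also binds unmethylated CpG. It was at 13.93, 12.77 and 13.18 TPM in WT replicates 1, 2 and 3 and at 22.63, 23.99 and 28.6 TPM in DKO1. The WT values lay close together, and every DKO1 value was above every WT value. The mean rose from 13.3 ± 0.588 to 25.1 ± 3.13 TPM, 1.89-fold (log2 fold change 0.86, SE 0.14, limma adjusted p = 0.00327), and an exact two-sided permutation test gave p = 0.1, the smallest that 3 against 3 samples allow. This log2 fold change stood at percentile 87.8 of all tested genes. The call held in all 6 fits that left out a sample (log2 fold change 0.77 to 0.93), and the log2 fold change was 0.98 once mitochondrial genes and spike-in rows were removed and the rest rescaled. After a correction for the GC content of transcripts, chosen after the data were seen, it was 0.56 (adjusted p = 0.0265), smaller and still called. TPM counts all isoforms of the gene together, so forms with and without the CXXC finger that binds unmethylated CpG cannot be told apart.

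ZBTB33 (ENSG00000177485.6, chromosome X) encodes Kaiso, whose zinc fingers bind paired methylated CpGs and which also binds p120 catenin. It was at 21.76, 24.98 and 21.15 TPM in WT and at 9.64, 13.61 and 16.35 TPM in DKO1. The highest DKO1 value, of replicate 3, was below the lowest WT value, and the DKO1 samples were spread more widely than the WT samples. The mean fell from 22.6 ± 2.06 to 13.2 ± 3.37 TPM, 1.71-fold (log2 fold change −0.76, SE 0.2, limma adjusted p = 0.0267; exact two-sided permutation p = 0.1, the smallest allowed). The log2 fold change stood at percentile 5.1 of all tested genes. The call rested on the full set of samples: leaving out DKO1 replicate 1 ended it (adjusted p = 0.0596), as did leaving out WT replicate 1, 2 or 3 (0.0752, 0.101 and 0.0743), while the log2 fold change stayed between −0.92 and −0.57 in the 6 fits. It was −0.67 (adjusted p = 0.0027) after the GC correction.

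The start regions of these 2 genes are shown because the proteins of this family bind CpG sites, and the promoter of MBD3 is shown beside them as the most CpG-dense of the 7. The sequences are from RefSeq on GRCh38.p14, 250 bases before to 50 after the transcription start, 5′ to 3′ on the gene's strand, with every CpG in capitals. The windows are chr18:50281718-50282017 (minus strand) for MBD1, chrX:120250562-120250861 (plus strand) for ZBTB33 and chr19:1592816-1593115 (minus strand) for MBD3.
MBD1: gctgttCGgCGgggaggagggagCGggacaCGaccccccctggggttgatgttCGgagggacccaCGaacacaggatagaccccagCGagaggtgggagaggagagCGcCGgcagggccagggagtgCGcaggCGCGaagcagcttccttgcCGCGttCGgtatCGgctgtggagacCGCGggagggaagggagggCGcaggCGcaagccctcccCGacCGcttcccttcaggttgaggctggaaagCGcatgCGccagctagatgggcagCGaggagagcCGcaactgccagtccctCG
ZBTB33: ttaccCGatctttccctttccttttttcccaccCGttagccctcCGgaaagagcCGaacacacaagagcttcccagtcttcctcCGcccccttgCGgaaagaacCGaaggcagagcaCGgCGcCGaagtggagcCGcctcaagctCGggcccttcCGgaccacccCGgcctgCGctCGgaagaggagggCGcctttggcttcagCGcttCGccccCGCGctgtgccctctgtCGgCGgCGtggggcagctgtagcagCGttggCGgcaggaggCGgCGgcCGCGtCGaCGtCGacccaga
MBD3: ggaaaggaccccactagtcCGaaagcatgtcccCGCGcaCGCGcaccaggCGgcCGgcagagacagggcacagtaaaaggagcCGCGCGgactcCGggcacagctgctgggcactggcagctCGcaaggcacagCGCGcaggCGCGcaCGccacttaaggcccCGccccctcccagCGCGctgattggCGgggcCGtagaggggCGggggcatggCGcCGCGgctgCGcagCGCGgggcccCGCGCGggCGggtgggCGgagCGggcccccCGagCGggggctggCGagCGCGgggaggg
The MBD1 window held 27 CpGs, the ZBTB33 window 33 and the MBD3 window 40, beside a median of 26 over 9747 tested genes with such a window. The windows of MBD2, MBD4 and ZBTB4 held 32, 29 and 31 CpGs. Of the readers only ZBTB38 had several starts in the RefSeq table, with 0 to 35 CpGs in their windows. By CpG count the MBD1 window stood at percentile 50.8 of the windows of tested genes, near the middle, and the ZBTB33 window at percentile 70.5. The windows of MBD2 and MBD4, which were not called, stood at percentiles 67.6 and 57.8. Methylation at these windows was not analysed here.

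MBD2 and MBD4, the most abundant readers, showed no call. MBD2 (ENSG00000134046.7, chromosome 18) was at 56.19, 74.1 and 80.16 TPM in WT and at 68.92, 53.03 and 76.48 TPM in DKO1, so that the groups overlapped throughout. Its log2 fold change was −0.08 (SE 0.19, 95% interval −0.52 to 0.35, limma adjusted p = 0.775). Its direction turned under quantile normalization (0.022) and after removal of mitochondrial genes and spike-in rows (0.026), and with the GC correction and replicate block together it was called lower (−0.404, adjusted p = 0.0364). MBD4 (ENSG00000129071.5, chromosome 3) was at 38.24, 43.76 and 41.56 TPM in WT and at 32.36, 37.45 and 52.89 TPM in DKO1, where replicates 1 and 2 lay below all WT values and replicate 3 above them. Its log2 fold change was −0.04 (SE 0.19, 95% interval −0.47 to 0.4, adjusted p = 0.901). MBD4 overlaps IFT122 on the opposite strand, and since the use of strand in counting is not given in the sources used here, reads of the 2 genes may have been shared; IFT122 averaged 14.8 TPM in WT and 14.1 TPM in DKO1.

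MBD3 (ENSG00000071655.13, chromosome 19) had values of 1.46, 0.34 and 1.2 TPM in WT and of 1.01, 0.59 and 2.64 TPM in DKO1. Replicate 2 was lowest in both genotypes, and the coefficient of variation was 58.6% in WT and 76.6% in DKO1, against at most 28.5% for any other reader. Its log2 fold change of 0.23 had the widest interval of the 7 (SE 0.35, 95% interval −0.59 to 1.05, limma adjusted p = 0.673), so that the values leave changes within that interval open. The ratio of MBD2 to MBD3, the alternative NuRD subunits, was 38.5, 218 and 66.8 in WT and 68.2, 89.9 and 29 in DKO1, and in each genotype it was highest in replicate 2, where MBD3 was lowest. The part of GC content in this ratio was not tested.

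ZBTB4 and ZBTB38 encode the relatives of Kaiso, which bind single methylated CpGs. ZBTB4 (ENSG00000174282.7, chromosome 17) was at 4.88, 4.0 and 3.71 TPM in WT and at 5.87, 5.05 and 5.26 TPM in DKO1. The groups did not overlap, but the gap between them was small, 4.88 against 5.05 TPM, and the gene did not pass (log2 fold change 0.3, SE 0.16, 95% interval −0.07 to 0.67, limma adjusted p = 0.195). Its log2 fold change was −0.016 under quantile normalization and −0.004 after the GC correction. ZBTB38 (ENSG00000177311.6, chromosome 3) was at 22.74, 21.76 and 19.24 TPM in WT and at 14.91, 17.78 and 25.59 TPM in DKO1. Its DKO1 values spanned the WT range on both sides (log2 fold change −0.15, SE 0.2, 95% interval −0.63 to 0.32, adjusted p = 0.619). The model of ZBTB38 overlaps that of PXYLP1 on the same strand in GENCODE release 29, so the split of reads between these 2 genes is uncertain; PXYLP1 averaged 18.3 TPM in WT and 20.3 TPM in DKO1.

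**Figure D2:**
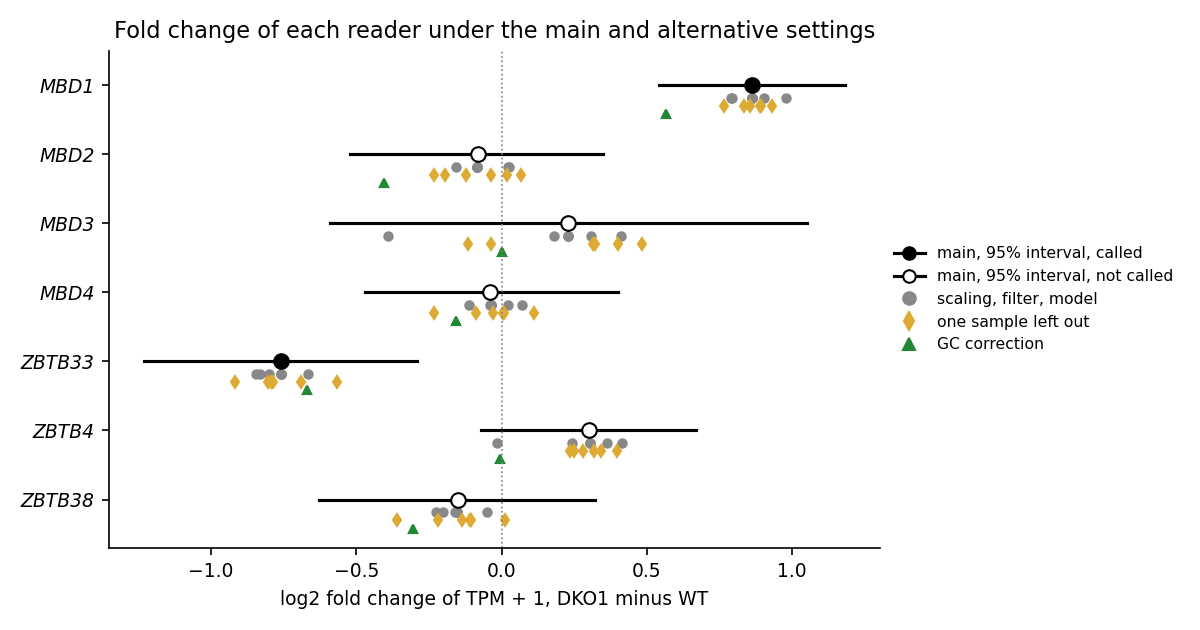
Log2 fold change of TPM + 1 (DKO1 minus WT) of each reader: large black points with bars are the main fit with its 95% interval (filled where called), and small markers are the alternatives. The interval of MBD1, 0.54 to 1.18, and that of ZBTB33, −1.23 to −0.29, lie on either side of 0; those of the other 5 readers include 0.

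DKO1 replicate 3 had the highest value of the DKO1 samples for 6 of the 7 readers, all but ZBTB4. It is also the DKO1 sample with the lowest mitochondrial share, 21.2%, and with the most genes at 1 TPM or above, 14419 against 13809 and 13327 in replicates 1 and 2. Without it the log2 fold change of MBD1 was 0.77 and that of ZBTB33 −0.92. The part of these sample differences in the reader values was not tested.

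A ratio of deposited TPM within a sample is not altered by a single scaling factor per sample, though quantile normalization and the GC correction, which treat genes differently, can move it. MBD1 over ZBTB33 was 0.64, 0.51 and 0.62 in WT and 2.35, 1.76 and 1.75 in DKO1. MBD1 was the scarcer of the 2 transcripts in every WT sample and the more abundant in every DKO1 sample; the pair was chosen after the values were seen, so no test is given. The 7 transcripts summed to 159.2, 181.7 and 180.2 TPM in WT and to 155.3, 151.5 and 207.8 TPM in DKO1. MBD1 made up 7.0% to 8.8% of this sum in WT and 13.8% to 15.8% in DKO1, and ZBTB33 11.7% to 13.7% and 6.2% to 9.0%. MBD2 made up 35.3% to 44.5% in WT and 35% to 44.4% in DKO1, and MBD4 23.1% to 24.1% and 20.8% to 25.5%.

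**Figure D3:**
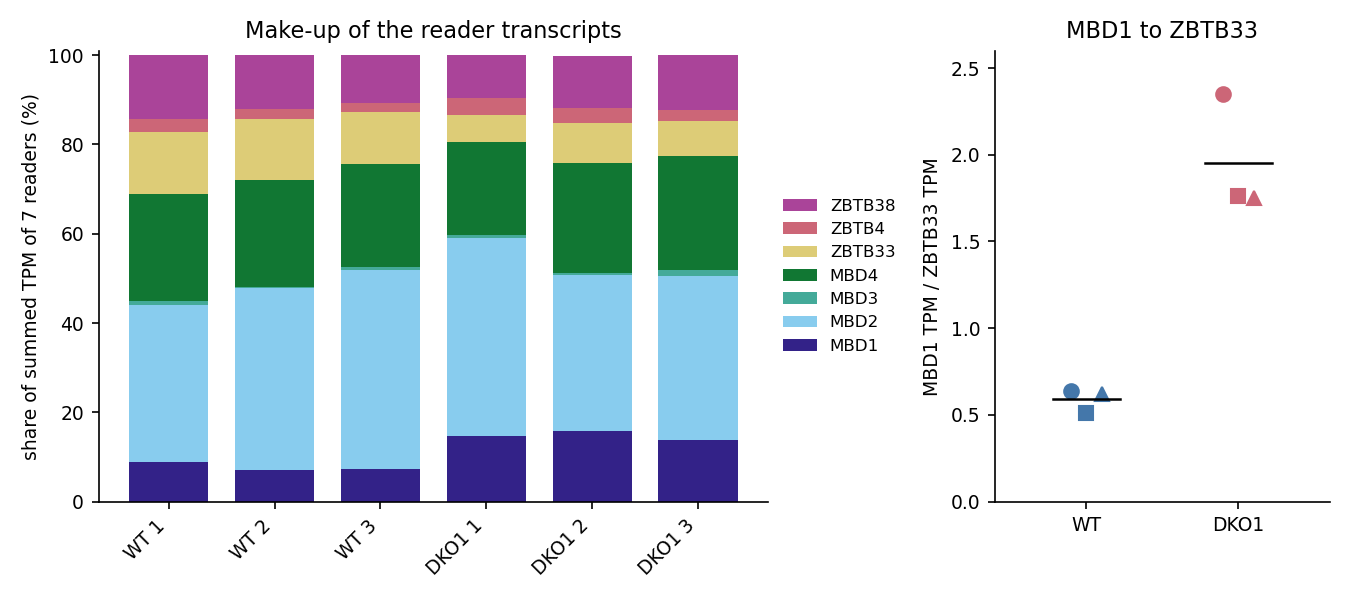
Left, share of each reader in the summed TPM of the 7 readers, by sample (bars stacked to 100%); right, ratio of MBD1 to ZBTB33 TPM in each sample, with the replicate as marker shape and the mean as a line. The MBD1 share is higher in every DKO1 sample (13.8% to 15.8%) than in any WT sample (7.0% to 8.8%), and the ratio goes from a mean of 0.59 to 1.95.

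GC content moved with both the fold changes and the replicate differences. Among tested genes whose transcripts had a GC content below 40%, the median log2 fold change was −0.29, and from 55% to 60% it was 0.21. ZBTB33 lies at the edge of the first bin (40%, percentile 9.5 of tested genes), and its log2 fold change of −0.76 was further from 0 than that median. MBD1 lies in the second (58.5%, percentile 86.0), with 0.86 against 0.21. ZBTB4, at 57.7%, had a log2 fold change of 0.3, close to that same median of 0.21. Replicate 2 differed from replicates 1 and 3 along GC content in both genotypes: across 13225 tested genes its deviation in log2(TPM + 1) correlated with GC content at −0.47 in WT and −0.55 in DKO1, a description across genes, which are not independent. MBD3, with the highest GC content of the readers (65%, percentile 98.7), was 0.8 lower in WT replicate 2 and 0.77 lower in DKO1 replicate 2 than the mean of the other 2 replicates on that scale, beside medians of −0.26 and −0.63 for tested genes at 65% and over. The part of GC content in the level of MBD3 was not tested.

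**Figure D4:**
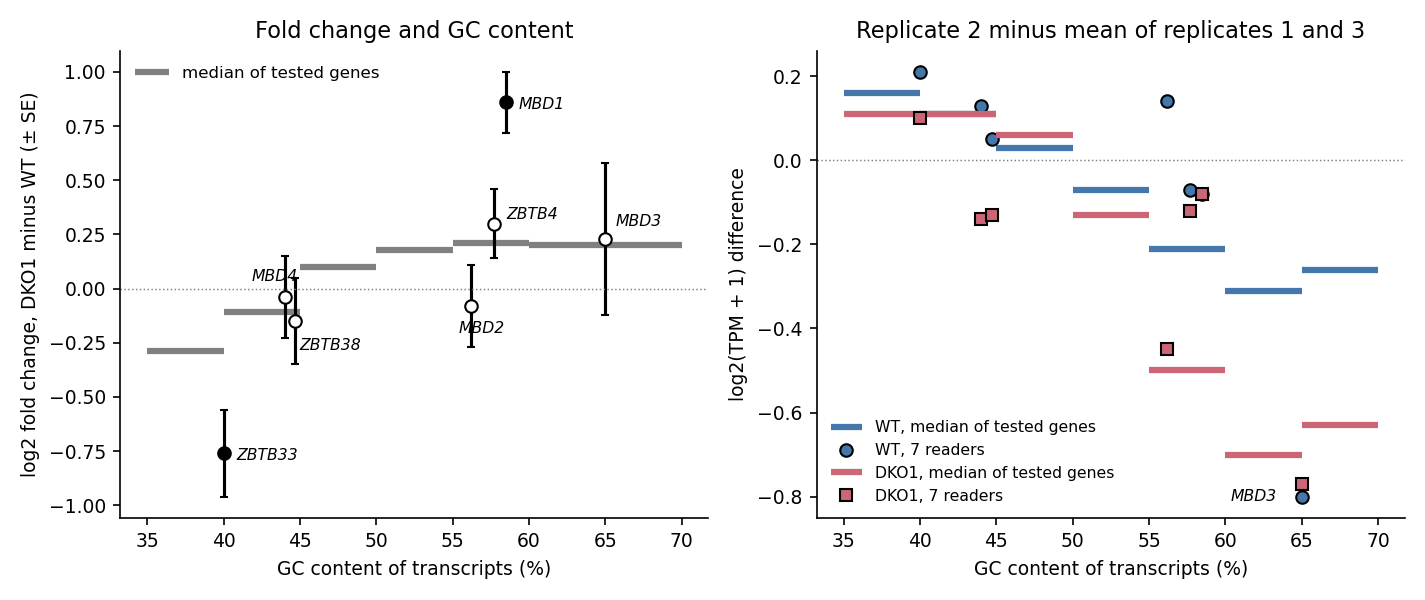
Left, log2 fold change of each reader (± SE, filled where called) against the GC content of its transcripts, with the median of all tested genes per GC bin in grey; right, replicate 2 minus the mean of replicates 1 and 3 in log2(TPM + 1), by genotype. The outermost bins hold all genes below 40% and at 65% and over. MBD1 and ZBTB33 lie beyond the medians of their bins (0.21 and −0.29), and MBD3 is low in replicate 2 of both genotypes.

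The next genes are those of the complexes through which the readers act. Over all tested genes, 18.8% were higher and 9.6% lower, and these shares stand beside the list counts below. After the GC correction 2085 genes were higher and 3199 lower, of 13225 tested. Of 14 NuRD genes, 13 were tested, 0 rose and 1 fell (7.7%), with a median log2 fold change of −0.11. The gene that fell was the remodelling ATPase CHD3, from 14.1 ± 1.52 to 8.77 ± 2.27 TPM (log2 fold change −0.65, SE 0.2, limma adjusted p = 0.0457). Its call was kept without DKO1 replicate 3 and lost without any of the other samples (adjusted p = 0.088 to 0.15). It was also lost with no filter (0.0657) and after removing mitochondrial genes and spike-in rows (0.052), where 0 NuRD genes were called. The main ATPase CHD4 averaged 146 ± 21.9 TPM in WT against 173 ± 38.1 TPM in DKO1, and the deacetylase HDAC1 at 89.1 ± 9.26 and 106 ± 26 TPM, with neither called. The scaffold MTA1 was at 16.7 ± 2.08 and 11.5 ± 2.31 TPM with groups that did not overlap, and missed the call (adjusted p = 0.0737; 0.0259 with the replicate block). With the block 2 NuRD genes were lower, beside 1817 of all tested genes. After the GC correction 5 were lower, and the median over all tested genes went from 0.073 to −0.122 in log2 fold change. With the correction and the block together 0 NuRD genes were higher and 9 lower, beside 2410 and 3981 of all 13225 genes then tested.

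Among 17 co-repressor partners of MBD1, ZBTB33, ZBTB4 and ZBTB38, all tested, 1 rose (5.9%) and 2 fell (11.8%). Of all tested genes 18.8% rose and 9.6% fell. The median log2 fold change of the partners was −0.05, beside 0.07. Both partners that fell are subunits of the N-CoR complex to which Kaiso binds. TBL1XR1 was at 67.37, 71.34 and 72.75 TPM in WT and at 30.34, 40.7 and 43.91 TPM in DKO1, well apart, with a log2 fold change of −0.88 (SE 0.15, limma adjusted p = 0.00502) that was called in all 6 fits leaving out a sample. Its relative TBL1X fell from 6.96 ± 0.881 to 4.07 ± 0.285 TPM (adjusted p = 0.0193), a call lost without DKO1 replicate 1 or WT replicate 1 or 3 (0.0536, 0.0811 and 0.0824). The N-CoR scaffold NCOR1 was at 18.9 ± 0.401 and 18.7 ± 4.39 TPM, and the deacetylase HDAC3 at 69.7 ± 8.78 and 61.7 ± 18.1 TPM, with no call for either. GPS2, another subunit, named after its values were seen, was higher in each DKO1 sample than in any WT sample, with means of 69.1 and 91.5 TPM, and missed the call (log2 fold change 0.39, adjusted p = 0.0524; 0.046 with the replicate block). SIN3B, a scaffold of the SIN3 complex, rose from 11.6 ± 1.41 to 16.9 ± 0.775 TPM (adjusted p = 0.0325), a call kept without DKO1 replicate 2 and lost without any of the other samples (0.0541 to 0.145), under quantile normalization (0.0882), with median-ratio scaling (0.0593) and after the GC correction (0.331). SETDB1 and ATF7IP, the MBD1 partners, were at 33.5 ± 5.36 and 21.9 ± 1.6 TPM in WT and at 31.6 ± 2.76 and 19.2 ± 3.06 TPM in DKO1 and were not called. With the replicate block 2 partners rose and 4 fell, beside 3053 and 1817 of all tested genes. After the GC correction 0 rose and 7 fell (0 and 8 with the block added). Of all 13225 genes tested after that correction, 2085 rose and 3199 fell (2410 and 3981 with the block).

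Of 19 genes of base excision repair, the pathway that completes the work of MBD4, 17 were tested, 0 rose and 2 fell (11.8%). Of all tested genes 18.8% rose and 9.6% fell. The median log2 fold change of the list was −0.12, beside 0.07. APEX1, the endonuclease that cuts the site left by a glycosylase, was at 272.71, 268.85 and 292.84 TPM in WT and at 199.48, 180.08 and 193.3 TPM in DKO1. Its groups were far apart for their spread (log2 fold change −0.54, SE 0.1, limma adjusted p = 0.00614), and it was called in all 6 fits leaving out a sample, though not under quantile normalization (0.0509). TDG, the other thymine glycosylase acting at CpG sites, fell from 64.3 ± 4.71 to 42.9 ± 9.2 TPM (log2 fold change −0.59, adjusted p = 0.0392), a call kept without DKO1 replicate 3 and lost without any of the other samples (0.0538 to 0.141), with no filter (0.063) and after removing mitochondrial genes and spike-in rows (0.0533). POLB, the repair polymerase, was at 118 ± 10 and 110 ± 21.6 TPM with no call. After the GC correction 7 members were lower, beside 3199 of all 13225 genes then tested. With the replicate block added 0 were higher and 8 lower, beside 2410 and 3981.

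Of 10 readers of unmethylated CpG, which carry a CXXC zinc finger, 8 were tested, 1 rose (12.5%) and 1 fell (12.5%). Of all tested genes 18.8% rose and 9.6% fell. The median log2 fold change of the list was −0.17, beside 0.07. KDM2A, an H3K36 demethylase, rose from 18.8 ± 1.12 to 28 ± 4.31 TPM (log2 fold change 0.54, limma adjusted p = 0.0296), a call kept without DKO1 replicate 2, lost without any of the other samples (0.0516 to 0.12) and lost after the GC correction (0.136). TET1, which oxidises methylcytosine, fell from 1.55 ± 0.0917 to 0.497 ± 0.131 TPM (adjusted p = 0.00448), a call lost without DKO1 replicate 1 (0.0582); without a WT replicate the gene no longer passed the filter on low values. After the GC correction 0 of these readers rose and 4 fell, beside 2085 and 3199 of all 13225 genes then tested. CXXC1, the neighbour of MBD1 on chromosome 18, was at 12.75, 6.11 and 11.11 TPM in WT and at 14.63, 3.21 and 18.46 TPM in DKO1, low in replicate 2 of both genotypes like MBD3. Of the 2 readers listed with an SRA domain, UHRF1 could not be matched by its Ensembl identifier, so its level is not known here. UHRF2 was at 54.9 ± 6.64 and 48.5 ± 11.3 TPM with no call.

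Relatives by protein family came next. Of 11 other genes listed as relatives of the MBD genes, 6 were tested and 0 were called by limma, beside 28.4% of all tested genes. At an unadjusted p below 0.05 there was 1, BAZ2B, named for that reason after its values were seen, at 10.1 ± 0.623 and 6.44 ± 2.13 TPM (unadjusted p = 0.03, limma adjusted p = 0.0852). After the GC correction 0 of these relatives rose and 2 fell, beside 2085 and 3199 of all 13225 genes then tested. With the replicate block added 1 rose and 3 fell, beside 2410 and 3981. Under quantile normalization 1 fell, beside 1939 of all tested genes, and under median-ratio scaling 1 fell, beside 1738. The 5 genes of the MBD3L cluster had means of at most 0.02 TPM in either genotype. Of 56 other rows with a symbol starting in ZBTB, 17 of them noncoding RNAs, pseudogenes or ZBTB8OS by name, 29 were tested. Of these, 3 rose (10.3%) and 5 fell (17.2%), beside 18.8% and 9.6% of all tested genes. Their median log2 fold change was −0.02, beside 0.07. ZBTB18, a transcriptional repressor with a part in neural development, rose most, from 1.48 ± 0.302 to 8.41 ± 0.878 TPM (log2 fold change 1.93, SE 0.17, limma adjusted p = 0.000154). ZBTB37 fell from 4.39 ± 0.293 to 2.08 ± 0.465 TPM (adjusted p = 0.0104; 0.0503 without WT replicate 3), and the antisense RNA ZBTB11-AS1 rose from 1.76 ± 0.208 to 3.76 ± 0.383 TPM (adjusted p = 0.00707, and 0.113 under quantile normalization). The number that fell was 0 to 7 over the fits that left out a sample, beside 478 to 1960 of all tested genes.

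**Figure D5:**
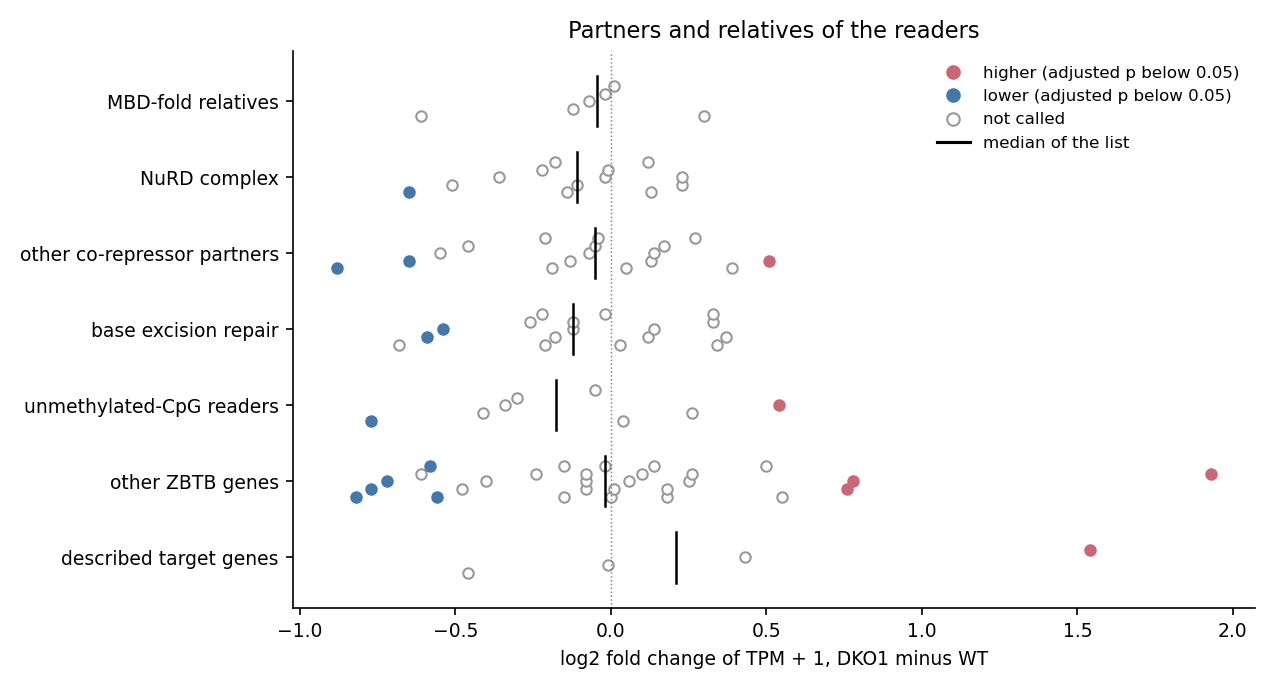
Log2 fold change (DKO1 minus WT) of each tested gene of 7 lists; filled points were called (adjusted p below 0.05), open points were not, black lines are list medians, and vertical offsets only separate points. Most points lie between −0.5 and 0.5, with ZBTB18 (1.93) and CDKN1A (1.54) furthest to the right and TBL1XR1 (−0.88) furthest to the left.

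Of 6 genes described in the literature as targets of a reader, 4 were tested and 1 rose (25%, beside 18.8% of all tested genes). It was CDKN1A, the cell cycle inhibitor p21 that ZBTB4 is described to repress. CDKN1A was at 2.42, 1.94 and 2.23 TPM in WT and at 10.2, 6.57 and 8.5 TPM in DKO1, every DKO1 value above every WT value (log2 fold change 1.54, SE 0.19, limma adjusted p = 0.000779, called in all 6 fits leaving out a sample). MCM10, a replication factor described as a target of ZBTB38, was at 49.4 ± 2.79 and 36.3 ± 9.28 TPM and not called (adjusted p = 0.1; 0.0407 with the replicate block). GSTP1, described as bound by MBD2, was at 29.79, 13.48 and 23.63 TPM in WT and 38.21, 11.68 and 53.27 TPM in the DKO1 samples, again lowest in replicate 2, and not called (adjusted p = 0.593). MTA2 was at 65.4 ± 9.99 and 65.4 ± 14.6 TPM, while WNT11 and MMP7 stayed below 1 TPM in all samples and were not tested.

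Kaiso has been described at the palindrome CTCGCGAG in chromatin and at TCCTGCNA as an unmethylated sequence, and the RefSeq promoter windows were searched for each on both strands. None of the 7 readers' windows held CTCGCGAG, and TCCTGCNA was found in 1 of the windows of ZBTB38 alone. CTCGCGAG occurred in 358 of 35116 promoter windows (1.02%). Of the 250 tested genes with it, 22 rose (8.8%) and 37 fell (14.8%), beside 17.9% and 10.1% of the 9747 tested genes with a promoter window, and the median log2 fold change was −0.12 beside 0.07. Genes with the palindrome had transcripts of lower GC content, with a median of 46.3% beside 48.7%, and more CpGs in the window, 29.5 beside 26. The palindrome itself contains CpGs, so choosing windows by it adds to their number. The part of GC content or CpG number in the counts was not tested. Over fits leaving out a sample the risers numbered 8 to 19 and the fallers 13 to 68. Over all tested genes they numbered 926 to 1949 and 478 to 1960. After the GC correction 20 rose and 95 fell (21 and 106 with the replicate block added). Of all 13225 genes tested after that correction, with or without a promoter window, 2085 rose and 3199 fell (2410 and 3981 with the block). Counts for all genes with a window are given only for the main fit. The largest changes among genes with the palindrome were all rises: OLFM1, a secreted neural glycoprotein, to 11.8 ± 4.06 TPM, EXO5, a DNA exonuclease listed at 0 in WT, to 6.94 ± 0.827 TPM, and FAM184A to 6.21 ± 1.66 TPM.

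TCCTGCNA occurred in 1648 windows (4.69%). Of the 542 tested genes with it, 115 rose (21.2%) and 49 fell (9.0%), with a median log2 fold change of 0.1, near the values of all tested genes with a window. Over fits leaving out a sample 44 to 87 rose and 16 to 70 fell. Over all tested genes 926 to 1949 rose and 478 to 1960 fell. After the GC correction 93 genes with TCCTGCNA rose and 126 fell (108 and 163 with the replicate block added). Of all 13225 genes then tested, with or without a promoter window, 2085 rose and 3199 fell (2410 and 3981 with the block). The largest changes among genes with TCCTGCNA were the fall of NR5A2 (log2 fold change −4.88) and the rises of TM4SF1, from 1.64 ± 0.472 to 70.1 ± 3.31 TPM, and SPART, to 17.9 ± 2.28 TPM. Matches of this kind describe letters in a window and do not show binding.

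The pattern over the 6 samples was compared with that of 8859 tested genes averaging 5 TPM or more by Pearson correlation of log2(TPM + 1), as a description. With only 6 samples, 421 genes correlated with MBD1 above 0.95 and 889 with ZBTB33. The most alike to MBD1 were MAP4K4 (r = 0.9974), from 58.5 to 78 TPM, and ZNF334 (0.9973), from 0.01 to 11 TPM. The most alike to ZBTB33 were the bicarbonate transporter SLC4A7 (0.9991), from 21.8 to 11.8 TPM, and ABCB10 (0.9984), from 27.8 to 18.6 TPM. For MBD4 they were the DNA ligase LIG4 (0.9921) and GOLGA8A (0.9891), for ZBTB38 TTC21B (0.9943) and ZNF789 (0.9938), for ZBTB4 TUBA1A (0.9902) and PRPSAP1 (0.9892), for MBD3 MUC20-OT1 (0.9876) and SUMF1 (0.9874), and for MBD2 CDC37L1-DT (0.9389) and LINC01128 (0.9285). Among the readers themselves MBD4 and ZBTB38 were most alike (r = 0.87 over 6 samples) and ZBTB33 and ZBTB4 most opposed (−0.82).

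No tested protein-coding neighbour of MBD1 was called, and neither neighbour of ZBTB33 was tested. Beside MBD1, CFAP53 was at 2.06 ± 0.209 and 1.79 ± 0.533 TPM (limma adjusted p = 0.576), and CXXC1 had an adjusted p of 0.968. Beside ZBTB33, RHOXF2 was at 0 in every WT sample and averaged 0.31 ± 0.101 TPM in DKO1, and TMEM255A was near 0 in both. Next to MBD2, POLI, a translesion DNA polymerase, fell from 37.1 ± 3.23 to 22.3 ± 7.28 TPM (log2 fold change −0.75, adjusted p = 0.0494), a call kept without DKO1 replicate 3, lost without any of the other samples (0.0667 to 0.148) and also lost with no filter (0.0835), at a mean of 5 TPM or more (0.0522), after removing mitochondrial genes and spike-in rows (0.0539), with no variance trend (0.055) and with a pseudocount of 0.1 (0.0527). The neighbours MEX3D and UQCR11 of MBD3, CHRNB1 of ZBTB4 and RASA2 of ZBTB38 were tested and not called.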

How the data were processed

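RNA was measured in 3 WT and 3 DKO1 samples, grouped by the sample titles, from messenger RNA libraries made with a stranded kit, per the labels' protocols. The authors deposited TPM per gene, scaled to the same total in each sample. RSEM 1.2.21, STAR 2.5.3a, edgeR 3.12.1, Trim Galore 0.4.0, FastQC and builds hg19 and GRCh37 are named, with no roles, per the submitters' processing notes. Annotation release and strand setting: not given in the sources used here. TPM keeps no depth, so counting error is unknown. From these values limma 3.58.1 in R 4.3.3 modelled log2(TPM + 1), with the variance trend on, for genes reaching 1 TPM in 3 or more samples, with genotype as the only term. The pseudocount of 1 understates changes of low genes. No fold of TPM is given where a mean is below 0.5 TPM. The script was tested on simulated data. The 77 spike-in rows stayed out. Symbols came from a reference table by Ensembl identifier (89.9% of human rows matched), and GC content from GENCODE 29 transcripts (97.2% of tested genes). Lists are described by counts, with no test of a list.

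Samples with the same replicate number deviated together from their group means (r = 0.35, 0.572 and 0.267 for replicates 1, 2 and 3, across tested genes). Samples with different numbers gave r from −0.383 to 0.128. These values are not independent, since each deviation is taken from a mean of 3 samples. The numbers were taken to pair the samples only in the fits with the replicate block, and the main fit is unpaired. This pairing comes from the data, not from the labels. Named genes are the 7 readers, up to 3 called genes with the largest change per list, the 2 genes most alike each reader and its nearest protein-coding neighbours; other genes (such as CHD4, NCOR1, POLB and MCM10) are named for their role. The readers and lists were chosen with earlier results of these data known.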

Additional observations from a re-analysis of the deposited data

How the results depend on the processing

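MBD1 was called higher under all 16 alternatives run, with log2 fold changes from 0.56 to 0.98. ZBTB33 kept its direction in all 16 and lost its call in 4 of 6 fits leaving out a sample (range over the 6, −0.919 to −0.566). The replicate block, which uses the pairing of replicate numbers, changed no call among the readers in the fit without GC correction (MBD1 adjusted p = 0.00416, ZBTB33 0.0157); 3053 genes were then higher and 1817 lower. Readers that were not called turned direction as follows, with no call in either direction: MBD2 to 0.022 under quantile normalization, 0.026 without mitochondrial genes and spike-ins, and up to 0.065 leaving out a sample (lowest −0.23); MBD3 to −0.392 under quantile normalization and as low as −0.115 leaving out a sample (highest 0.48); MBD4 to 0.022 and 0.071 under those 2 scalings and up to 0.112 leaving out a sample (lowest −0.23); ZBTB4 to −0.016 under quantile normalization and −0.004 with the GC correction, with or without the block; and ZBTB38 to 0.010 without DKO1 replicate 1 (lowest −0.361, without DKO1 replicate 3). MBD2 was called lower (−0.404, adjusted p = 0.0364) with the GC correction and the block together. Genes higher in DKO1 numbered 2558, 1145 above a mean of 5 TPM, 4400 with no filter and 926 to 1949 leaving out a sample (926, 1664 and 1497 without DKO1 replicate 1, 2 and 3). Genes lower numbered 1306, 3199 with the GC correction, 3981 with that correction and the block, and 478 to 1960 leaving out a sample (675 and 1960 without DKO1 replicate 1 and 3, and 562, 478 and 513 without WT replicate 1, 2 and 3). Both fits with the GC correction were added after the data were seen. The median over all tested genes shifted by −0.139 on the log2 scale under quantile normalization, 0.116 after removing mitochondrial genes and spike-ins, −0.195 under the GC correction and −0.122 without DKO1 replicate 3; causes were not tested. Of 320 list counts under alternatives, 227 stayed within 1.5 times the main count and 93 did not. The mean ratio of MBD2 to MBD3 was 108 in WT and 62.4 in DKO1, and leaving out a sample gave 52.6 to 142 and 48.6 to 79.1. Median-ratio scaling and the removal of mitochondrial genes and spike-ins use a single factor per sample. Such a factor cannot change this ratio, so these settings do not test it. Depth is unknown, so it sets no limit that could be stated, and MBD3 had the widest interval of the readers.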
